A study of Mus musculus with 7 samples.

Results

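The weakly accessible protein-coding promoters of mouse liver are the 2517 regions with the lowest mean accessibility among 12588 accessible regions at the start of a protein-coding gene, out of 55680 accessible regions in all. Promoter regions were those within 200 bp of the transcription start site (TSS) of a GENCODE M21 protein-coding transcript in GRCm38. The members were chosen by their measured counts. Each count was scaled to the library total (CPM, counts per 1000000 counts in regions), the mean over all 7 libraries was taken, and the lowest 20% of promoter regions were kept. Since this mean chose the regions, low accessibility is a description of them and not a finding. Their mean CPM ran from 1.14 to 11.66 with a median of 6.06, against a median of 39.7 for the 10071 other promoter regions. The last regions inside the limit were those of Chst14, Phyhipl and Ahdc1, at 11.657, 11.658 and 11.663 CPM. The first outside it were those of Kdm4b, Fibin and Znhit6, at 11.668, 11.672 and 11.675 CPM.

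Accessibility was measured by ATAC-seq, in which a transposase inserts sequencing adapters into exposed DNA, in whole liver of male C57BL/6N mice. The young group held 3 samples from mice of 3 months and the aged group 4 samples from mice of 18 months. The deposited design text traces the aged samples to 3 animals, 1 of which gave samples from 2 lobules, and does not say which samples share an animal, while the methods count them as 4 biological replicates. An SD or test over the 4 aged samples may therefore hold 1 animal more than once. The labels name no mutation and no treatment, and the groups differ by age in the labels. Counts in regions summed to between 4474652 and 25461110 per library. A weak promoter had a median count of 38 to 180 in the young and 22 to 58 in the aged libraries, so that single regions were measured with a larger error than other promoters (median standard error of the log2 fold change 0.26 against 0.13). The hepatocyte markers Alb, Apoa1, Apob, Ttr, Serpina1a, Cps1, Hnf4a and Cyp2e1 all had a promoter region, and in 0 of these 8 genes was the strongest one weak.

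A promoter is the stretch of DNA around a TSS where transcription factors and RNA polymerase II assemble. Active promoters are kept free of nucleosomes, while promoters of silent genes are wrapped in nucleosomes and give few transposase insertions. In vertebrates many promoters lie in CpG islands, stretches rich in the dinucleotide CpG that are often open in many tissues, and others are CpG-poor and open only in the cell types that use the gene. Whole liver is dominated by hepatocytes, so a promoter that is open in a minor cell type alone also gives a low signal.

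The sequence before the TSS was described in weak promoters, other promoters and genes without a promoter region. For each region the 250 bases before 1 start site, the one closest to the middle of the region, were read from GRCm38 and searched for short motifs. For genes without a region the outermost (most 5′) start site was used. The shares of these genes therefore rest on another choice of start than those of the promoters. The GC box bound by SP1-type factors (GGGCGG or its reverse complement CCGCCC) occurred before 47.8% of weak promoters, 63.1% of other promoters and 17.7% of 9093 protein-coding genes without any promoter region, and before 42.3% of all 21681 starts searched. The ETS core (CCGGAA, both strands) occurred before 12.6%, 23.7% and 4.49% of these classes, and before 14.3% of all. The TATA box (TATAAA, sense strand, between 45 and 16 bases before the start) occurred before 1.19% of weak and 1.05% of other promoters, against 4.87% for genes without a region and 2.67% of all. Weak promoters therefore lay between the other promoters and the genes without a region in GC box and ETS core shares. The following stretches of 30 bases come from weak promoters and are shown because they carry these letters, with the motif in capitals. They are from Cyp2c67 (chr19:39649065-39649094 and chr19:39649148-39649177, minus strand, the second with the HNF4A motif CAAAGTCCA), Cxcr4 (chr1:128592312-128592341, minus strand), Defb1 (chr8:21776545-21776574, plus strand), Elovl4 (chr9:83806297-83806326, minus strand) and Slc23a2 (chr2:132145110-132145139, minus strand), all in GRCm38 and written 5′ to 3′.
Cyp2c67, TATA box: ttgcaaatgatgTATAAAgtgtctggaatg
Cyp2c67, HNF4A motif: atcattgagaCAAAGTCCAtttggaagcaa
Cxcr4, TATA box: ggagcgtgttttTATAAAagtccggttcgg
Defb1, TATA box: aaccagtgttccTATAAAaaaacaagctca
Elovl4, GC boxes: ggaggcgCCGCCCCGCCCcgcgcggccacg
Slc23a2, GC boxes: cCCGCCCccggcCCGCCCctccgcggcgcc
The TATA boxes began 31, 36 and 42 bases before the starts of Cyp2c67, Cxcr4 and Defb1. In Elovl4 the pair of GC boxes shares 1 base. Slc23a2, a vitamin C transporter, had 6 GC boxes in its 250 bases. A match of letters does not show that a factor binds. The HNF4A letters (both strands) occurred before 0.318% of weak and 0.427% of other promoters, and before 0.406% of all.

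Weak promoter regions were short and less rich in CpG. Their median length was 763 bp (quartiles 546 and 1015) against 1394 bp in other promoters (1110 and 1834). Since CPM was summed over a region whatever its length, the choice itself favoured short regions. Divided by length, their median level was 7.40 CPM per kb against 27.5, a value that comes from the same counts that chose the regions. The ratio of observed to expected CpG had a median of 0.606 against 0.706, and 49.6% against 68.3% of regions met the criteria of a CpG island used here (ratio of at least 0.6 and GC content of at least 50%). GC content was alike, with medians of 58.9% and 58.5%. The 250 bases before the TSS held a median of 11 CpGs in weak promoters, 18 in other promoters and 3 in genes without a region. A TSS lay inside the region in 90.3% of weak and 99.1% of other promoters, and the start of a transcript tagged as principal in 79.8% and 93.3%. Only 2.70% of weak regions served more than 1 gene, against 11.9% of the others.

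The weak regions belonged to 2463 genes. Of the 21866 protein-coding genes in the annotation, 12760 had a promoter region, and in 2082 of these (16.3%) the strongest region was weak. In the remaining 381 genes the weak region was an additional start beside a stronger one. Chromosome X was richer in weak promoters than any autosome, with 119 of 342 promoter regions (34.8%). The autosomes ranged from 15.2% on chromosome 16 to 24.8% on chromosome 6. On chromosome Y all 4 promoter regions were weak, those of Kdm5d (a histone demethylase), Eif2s3y (a translation factor), Uty (a demethylase relative) and Ddx3y (an RNA helicase), with 1.96, 6.08, 11.1 and 11.6 mean CPM. The animals were male, and the part of X and Y dosage was not tested. Sequence nearly identical to another place in the genome was found for 63 weak regions (2.50%) against 0.616% of other promoters, and reads of such copies could have been lost or shared in mapping.

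Genes with a weak promoter were described by gene lists, beside the 16.3% of all genes with a region. Genes of other tissues mostly had no region at all, and where they had one it was often weak. Only 7 of 1134 olfactory receptor genes, which encode odorant receptors of the nose, had a promoter region, and 5 of these had a weak one, among them Olfr1160 (9.94 mean CPM) and Olfr1442 (8.21). Among Hox genes, the transcription factors that pattern the body axis, 5 of 39 had a region and all 5 were weak, among them Hoxa4, Hoxa5, Hoxa7 and Hoxd4. Of 90 developmental transcription factor genes of the Sox, Pax, Tbx, Nkx, Lhx, Irx, Dlx and Gata type, 33 had a region and 20 of these (60.6%) a weak one, including Sox4 (10.7 mean CPM), Tbx2 (10.7) and Dlx1 (10.4). Ion channel genes behaved likewise. Of the voltage-gated sodium and calcium channel genes, which drive excitation in nerve and muscle, 14 of 40 had a region and all 14 were weak, with Cacna1g at 5.97 and Cacnb1 at 5.29 mean CPM. Of the potassium channel genes 23 of 94 had a region and 17 of these (73.9%) a weak one. The shares were 62.5% of 8 protocadherin genes, which encode neuronal adhesion proteins, 71.4% of 7 glutamate, GABA and glycine receptor genes, and 30.8% of 13 amine and acetylcholine receptor genes.

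Genes of the ribosome, the proteasome and complex I rarely had a weak promoter. Of 83 cytosolic ribosomal protein genes 80 had a promoter region, and the strongest was weak in only 1 of these, Rps4x on chromosome X (10.9 mean CPM). For the mitochondrial ribosomal proteins the count was 4 of 78 (Mrpl16, Mrps18a, Mrps10 and Mrpl3), for complex I of the respiratory chain 2 of 36 (Ndufa9 and Ndufa1), and for the proteasome 0 of 42. For RNA polymerase II subunits it was 2 of 13 (Polr2c and Polr2k), or 15.4%, near the share of all genes. In gene families used by hepatocytes, weak promoters were found in 11 of 54 cytochrome P450 genes with a region (20.4%), among them Cyp2c29 and Cyp3a11, which oxidize drugs and steroids (both 11.1 mean CPM), and in 5 of 21 UDP-glucuronosyl and sulfotransferase genes, which conjugate such products. They were also found in 5 of 13 genes of the major urinary proteins, pheromone carriers secreted by male liver (Mup1, Mup6, Mup12, Mup18 and Mup20), and in 3 of 14 Serpina protease inhibitor genes. Near-identical copies elsewhere, which can split reads, were found for the weak regions of Mup1, Mup12, Mup18 and Mup20. None was found for those of Cyp2c29, Cyp2c67, Cyp3a11 and Serpina7. Solute carrier genes (50 of 243, 20.6%) and Zfp zinc finger genes (75 of 326, 23.0%) had shares like that of the cytochrome P450 genes, beside 16.3% of all genes with a region.

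**Figure D1:**
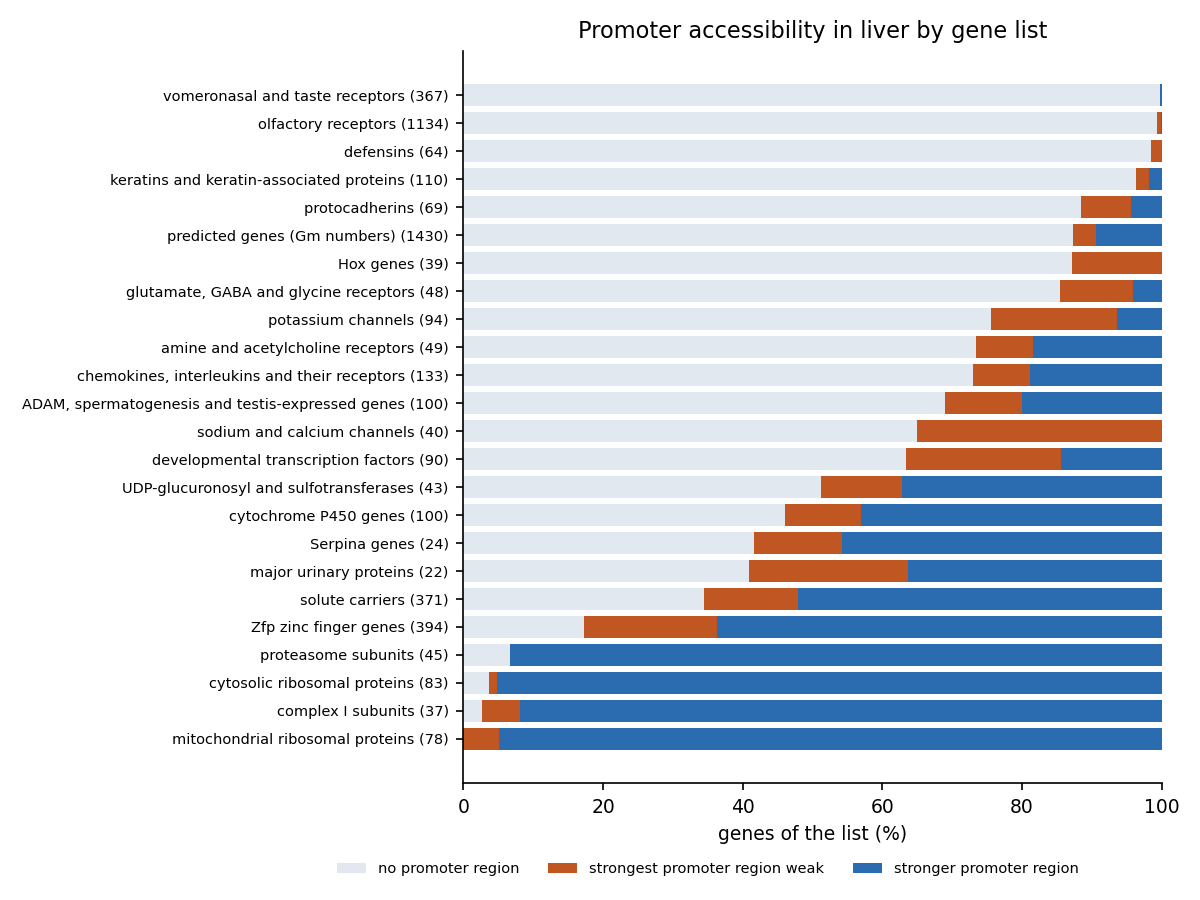
Share of the genes of each list (horizontal axis, percent of the genes in the annotation, number in parentheses) without a promoter region (grey), with a weak strongest region (orange) and with a stronger region (blue), for the lists of at least 20 genes. All Hox and all sodium and calcium channel genes with a region are orange, while the ribosomal protein, complex I and proteasome genes are nearly all blue.

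Markers of the minor cell types of liver were largely weak or without a region, which is relevant to the age comparison below. Weak strongest regions were found for Epcam and Spp1 (cholangiocytes), Clec4f (Kupffer cells), Clec4g, Kdr and Oit3 (sinusoidal endothelium), Lrat (stellate cells), Lck (T cells) and Alas2 (erythroid cells). Of 6 cholangiocyte markers 3 had a region, as had 1 of 7 Kupffer cell, 3 of 6 endothelial, 2 of 6 stellate, 1 of 9 T and NK cell, 0 of 6 B cell, 1 of 6 neutrophil and 2 of 5 erythroid markers. The highest of the weak ones was Clec4g, at 13.0, 13.4 and 9.70 CPM in the young and 8.61, 8.63, 11.4 and 13.9 CPM in the aged samples after TMM normalization, which corrects library totals for differing composition. The CPM values per sample below are on the same scale. The lowest was Clec4f, at 2.22, 2.65 and 2.30 CPM in young and 1.41, 0.588, 2.80 and 1.53 CPM in aged samples. Both genes overlapped between the ages. None of these genes passed the test of an age difference (edgeR, adjusted p 0.12 for Epcam and 0.31 or more for the others), with log2 fold changes from -0.77 for Epcam to 0.16 for Spp1. Epcam was the only one of them with every aged sample (1.57 to 2.67 CPM) below every young one (3.33 to 4.38). Summed over the strongest promoter regions of each marker list, weak or not, the 2 stellate genes had 20.9 to 24.0 CPM in young and 11.9 to 19.0 CPM in aged samples, and the 8 hepatocyte genes 607 to 648 and 717 to 826 CPM, without overlap between the ages. The ages overlapped in the sums of the cholangiocyte (43.8 to 52.0 and 39.4 to 56.9 CPM), Kupffer cell (2.22 to 2.65 and 0.588 to 2.80), endothelial (20.4 to 30.8 and 19.0 to 29.4), T and NK cell (5.92 to 8.20 and 4.12 to 8.53), neutrophil (12.2 to 16.3 and 7.65 to 17.1) and erythroid lists (8.33 to 11.5 and 7.47 to 10.8). The part of these cell types in the age differences was not tested. In bulk tissue, fewer cells of a type and less accessible DNA per cell cannot be told apart.

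With age, weak promoters lost share of the signal. They took 1.90%, 1.86% and 1.81% of the counts in regions in the young libraries (1.86% ± 0.045, SD, n = 3) and 1.36%, 1.40%, 1.35% and 1.45% in the aged ones (1.39% ± 0.044, SD, n = 4), and the ages did not overlap. Of the counts in promoter regions alone they took 3.87% ± 0.00032 (SD) in the 3 young libraries and 2.74% ± 0.11 (SD) in the 4 aged ones. The 30035 regions away from protein-coding promoters in the same range of mean CPM took 17.8% ± 0.32 (SD) in young and 14.5% ± 0.84 (SD) in aged libraries. A lower share in aged liver was thus not particular to promoters. Each of these shares depends on what the other regions of the library took.

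**Figure D2:**
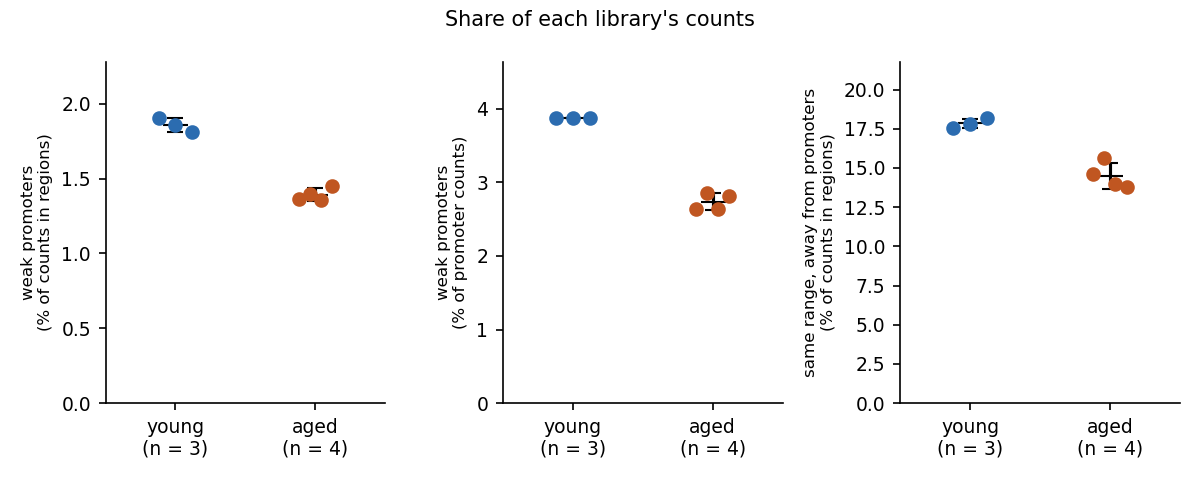
Share of each library's counts (vertical axes, percent) in weak promoters, out of all regions (left) and out of promoter regions (middle), and in regions away from promoters in the same range of CPM (right). Points are libraries, and black marks are the mean and SD. In each panel the 4 aged libraries lie below the 3 young ones.

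Tested one by one with edgeR's quasi-likelihood test over all 55680 regions, 6 weak promoters were higher and 144 lower in aged liver at an adjusted p under 0.05, that is 0.238% and 5.72% of them. Of all regions 2.44% were higher and 3.3% lower, and of all promoter regions 4.63% were higher and 1.6% lower. At an unadjusted p under 0.05, 712 weak promoters (28.3%) differed, beside 24.6% of all regions. The other promoters went the opposite way, with 577 higher and 58 lower. In the regions away from promoters in the same range of CPM, 150 (0.499%) were higher and 1375 (4.58%) lower. Every aged sample lay below every young one in 634 weak promoters (25.2%) and above in 29 (1.15%), while over all regions these shares were 11.6% and 10.2%. The median log2 fold change of weak promoters was -0.34 (quartiles -0.58 and -0.10), against 0.17 in other promoters, -0.20 in the regions away from promoters in the same range and -0.04 over all regions. The counts differed with the library left out and with the scaling. Without young replicate 1 they were 0 higher and 5 lower, without young replicate 2 they were 0 and 18, without aged replicates 1 and 3 in turn 1 and 25 and 1 and 28, and without aged replicate 4 they were 13 and 232.

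**Figure D3:**
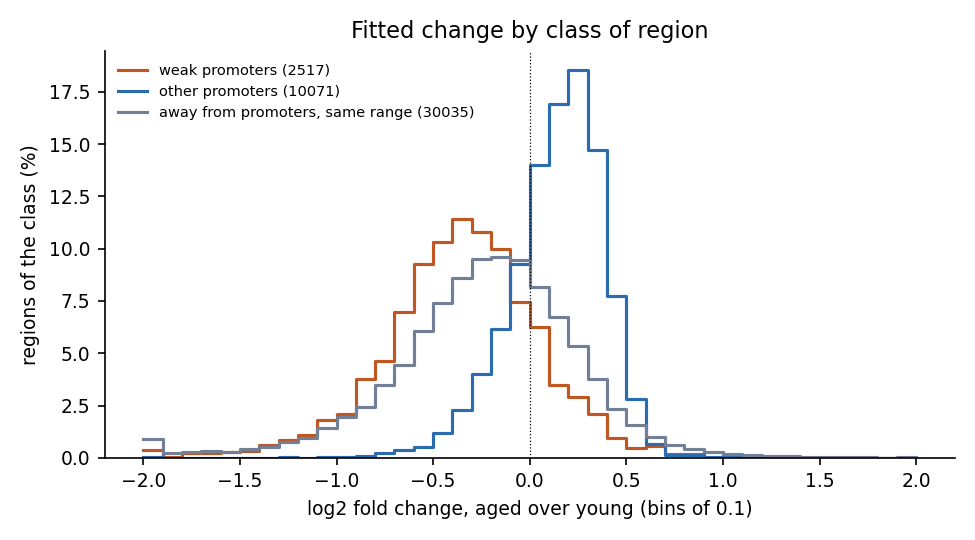
Distribution of the fitted log2 fold change of aged over young liver (horizontal axis, bins of 0.1, with values beyond the axis placed in the end bins) as percent of each class (vertical axis), for weak promoters (orange), other promoters (blue) and regions away from promoters in the same range of CPM (grey). The orange curve is centred at -0.34, the blue one at 0.17 and the grey one at -0.20.

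The direction followed the strength of the promoter. Ordered from the weakest to the strongest quintile of promoters, the medians of the log2 fold change were -0.34, -0.05, 0.11, 0.21 and 0.31, with 144, 49, 8, 1 and 0 regions lower and 6, 16, 58, 151 and 352 higher. Offsets fitted on mean abundance, which remove any trend with strength over all regions whatever its source, left the medians at -0.13, -0.07, -0.02, -0.003 and 0.018. With these offsets 3 weak promoters were higher and 23 lower, and 35.4% of their fold changes were above 0, against 17.4% without them. Offsets on GC content gave a median of -0.24 in weak promoters with 18 higher and 176 lower. The median over all regions was -0.04, and moved to -0.15 with total counts and to 0.07 with GC offsets. Relative to it, weak promoters were at -0.30 with TMM, -0.30 with total counts, -0.31 with GC offsets and -0.15 with abundance offsets. The median stayed negative in weak promoters under every other scaling, whereas that of the other promoters turned to -0.02 with the abundance offsets.

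**Figure D4:**
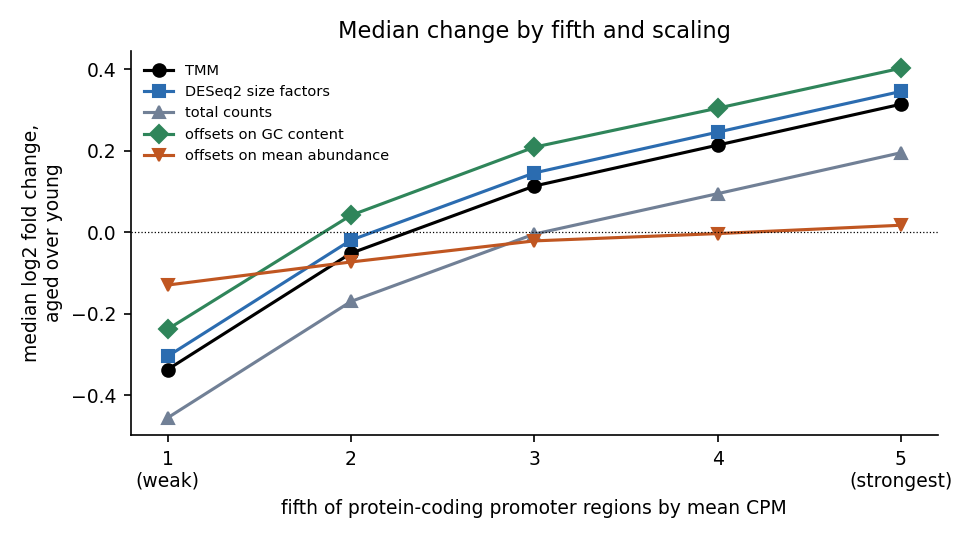
Median log2 fold change of aged over young liver (vertical axis) by quintile of promoter regions by mean CPM (horizontal axis) under 5 scalings. All lines rise from left to right, and the line with offsets on mean abundance is the flattest, from -0.13 to 0.018.

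Within the weak promoters the CpG-rich ones were lower. Split at ratios of observed to expected CpG of 0.457 and 0.719 into tertiles of 839 regions, the medians of the log2 fold change were -0.22 in the CpG-poor, -0.31 in the middle and -0.44 in the CpG-rich tertile. All 6 promoters that were higher lay in the CpG-poor tertile, and 40, 29 and 75 were lower. The share of promoters with every aged sample below every young one was 14.1%, 24.0% and 37.5%, beside 11.6% of all regions. The order of the medians was the same with offsets on GC content (-0.11, -0.21 and -0.34) and on mean abundance (-0.01, -0.10 and -0.24). In other promoters split at the same ratios the medians were 0.19, 0.17 and 0.17. The GC box stood before 18.4% of the CpG-poor and 68.4% of the CpG-rich weak promoters. Weak promoters on chromosome X had a median of -0.05, against -0.35 on the other chromosomes, and other promoters on X had a median of 0.27. With the abundance offsets the medians of weak promoters were 0.13 on X and -0.14 elsewhere.

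The weak promoters that were more accessible in aged liver included those of Plekhb1, Hoxd4, Cyp2c67, Crybg2 and Cbs. For Plekhb1, a pleckstrin homology domain protein (chr7:100658122-100658582), the young samples had 5.28, 6.05 and 8.22 CPM and the aged ones 14.7, 19.0, 12.8 and 13.5 CPM. The groups did not overlap, the log2 fold change was 1.23 ± 0.22 (SE), and the adjusted p was 0.011 (edgeR). This call was lost only without young replicate 1 or 2, among 21 alternatives.

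For Cyp2c67, a cytochrome P450 of the family that oxidizes drugs and fatty acids and the one with the TATA box shown above (chr19:39648820-39649230), the young samples had 4.63, 5.10 and 7.73 CPM and the aged ones 18.2, 8.83, 12.6 and 8.15 CPM. Aged replicate 1 was the highest, and the lowest aged sample was close to the highest young one. The log2 fold change was 1.10 ± 0.29 (SE) with an adjusted p of 0.044 (edgeR). Hoxd4 (chr2:74726421-74727180) had 2.59, 4.57 and 2.63 CPM in young and 10.2, 7.65, 5.14 and 6.11 CPM in aged samples. Crybg2, a crystallin-domain protein (chr4:134060342-134062373), had 6.11, 6.05 and 3.78 and then 8.17, 12.7, 17.7 and 8.65 CPM. Their log2 fold changes were 1.11 ± 0.30 and 1.07 ± 0.29 (SE), with adjusted p of 0.045 and 0.043 (edgeR). Cbs encodes cystathionine beta-synthase, which turns homocysteine into cystathionine. Its weak region (chr17:31633111-31633315) is an additional one that begins 2503 bp from the strongest, and had 6.20, 6.95 and 9.37 CPM in young and 12.4, 11.8, 12.4 and 13.1 CPM in aged samples. The log2 fold change was 0.75 in the weak and 0.57 in the strongest region (edgeR adjusted p = 0.041 and 0.042). The calls of Cyp2c67, Crybg2 and Cbs were lost with the abundance offsets, at adjusted p of 0.058, 0.060 and 0.052, while that of Hoxd4 was at 0.045. Of 21 alternatives Cyp2c67 was called in 13, Hoxd4 in 10 and Crybg2 and Cbs in 9 each. Hoxd4 was not called when any 1 of the young replicates or of aged replicates 1 to 3 was left out.

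The replication-dependent histone genes of the Hist1 cluster on chromosome 13 made up 9 of the 144 weak promoters that were lower. Their products package newly replicated DNA, and these genes are transcribed mainly in dividing cells. They were grouped here after their values were seen. Of 37 promoter regions of histone cluster genes 13 were weak, and 9 of these 13 (69.2%) fell. Of all weak promoters 5.72% were lower, and of all regions 3.3%. Among the other 24 histone regions 0 were lower and 1 was higher. Since weak promoters were chosen by the mean CPM of all 7 samples, the aged ones included, a fall itself moved a region towards them. A difference between the weak and the other histone regions is therefore partly set by this choice and was not tested. For Hist1h4n (chr13:21831299-21832310), an H4 gene, the young samples had 10.3, 12.6 and 8.55 CPM and the aged ones 2.02, 3.53, 2.33 and 1.78 CPM (log2 fold change -2.18 ± 0.27 SE, edgeR adjusted p = 0.0042). For Hist1h4m (chr13:21811879-21812779) they were 3.98, 4.69 and 6.08 and then 0.527, 0.981, 2.10 and 1.02 CPM (-2.22 ± 0.39 SE, edgeR adjusted p = 0.011). For Hist1h1b, a linker histone gene (chr13:21779141-21780654), they were 13.2, 11.7 and 7.73 and then 3.78, 2.94, 3.74 and 4.58 CPM (-1.53 ± 0.25 SE, edgeR adjusted p = 0.0090). In all of them the aged samples lay below the young ones. Hist1h4m and Hist1h4n were called under all 21 alternatives. The other weak histone promoters that fell were those of Hist1h3i (-1.78), Hist1h2an with Hist1h2bp (-1.62), Hist1h4k (-1.61), Hist1h2ak with Hist1h2bn (-1.47), Hist1h2ai with Hist1h2bl (-1.24) and Hist1h4j (-1.13, log2 fold changes). The calls of Hist1h3i and Hist1h4k were lost with the abundance offsets (adjusted p = 0.11 and 0.061, edgeR), and Hist1h4k has a near-identical copy elsewhere. Whether these regions share a change of the cluster as a whole was not tested.

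The other largest decreases were of mixed kind. Gm5136, a predicted gene (chr10:108699879-108700184), was among the 5 weakest members, with 2.87, 2.38 and 2.30 CPM in young and 0.527, 0.196, 0.233 and 0.509 CPM in aged samples. Its aged counts were only 6, 1, 1 and 4, so that the log2 fold change of -2.58 ± 0.42 (SE, edgeR adjusted p = 0.0093) rests on few reads. Elovl4, which elongates very long chain fatty acids (chr9:83805760-83806410), had 5.09, 5.33 and 3.12 CPM in young and 1.41, 0.981, 1.40 and 1.40 CPM in aged samples (-1.81 ± 0.31 SE, edgeR adjusted p = 0.011), and every aged sample lay below every young one. Aif1, a calcium-binding protein of macrophages (chr17:35173019-35173313), had 1.30, 2.72 and 1.64 and then 0.264, 0.981, 0.700 and 0.636 CPM (-1.76 ± 0.48 SE, edgeR adjusted p = 0.046), and was called in only 8 of 21 alternatives. Phactr2, a regulator of protein phosphatase 1 and actin (chr10:13474076-13474333), had 2.96, 2.46 and 1.97 and then 0.439, 0.785, 1.40 and 0.255 CPM (-1.99 ± 0.46 SE, edgeR adjusted p = 0.026). With the abundance offsets Gm5136, Aif1 and Phactr2 were not called (adjusted p = 0.082, 0.44 and 0.25, edgeR), and Elovl4 was (0.044). The strongest promoter region of Phactr2 was also lower, by a log2 fold change of -1.03. The remaining members of the 5 weakest, Zfp988 (1.14 mean CPM), Sh3gl2 (1.32) and Cacnb3 (1.34), did not pass the test, with adjusted p of 0.089, 0.0503 and 0.56 (edgeR).

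Further decreases lay in duplicated sequence. Speer4c and the predicted genes Gm21083, Gm21149 and Gm21190 lie within chr5:15476174-15714778, and each of the 4 weak regions has a near-identical copy elsewhere. Speer4c (chr5:15713467-15714778) had 8.05, 6.35 and 3.12 CPM in young and 1.41, 0.981, 1.40 and 1.91 CPM in aged samples (-2.03 ± 0.35 SE, edgeR adjusted p = 0.011), and Gm21083 (chr5:15576693-15577843) had 6.85, 6.43 and 2.80 and then 0.703, 1.37, 1.17 and 2.04 CPM (-2.09 ± 0.39 SE, adjusted p = 0.014). Young replicate 3 had the lowest young value in both. Gm21149 and Gm21190 fell by 1.60 and 1.99 on the log2 scale, and at Gm21190 the groups overlapped, with 3.12 CPM in young replicate 3 and 3.18 CPM in aged replicate 4. With the abundance offsets Gm21083, Gm21149 and Gm21190 were not called (adjusted p = 0.0502, 0.084 and 0.089, edgeR). Since reads of these copies may be exchanged in mapping, the 4 regions are uncertain and need not be independent.

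Ppp2r3d lies in sequence without such a copy. The weak region of this gene, which encodes a subunit of protein phosphatase 2A (chr9:124439486-124440894), begins 16660 bp from the strongest one. It had 25.9, 20.4 and 6.41 CPM in young and 5.01, 3.53, 2.10 and 5.35 CPM in aged samples (-2.09 ± 0.38 SE, edgeR adjusted p = 0.012). Young replicate 3 was nearest to the aged samples. The strongest region of the gene had 186 mean CPM and a log2 fold change of 0.27 (edgeR adjusted p = 0.43).

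**Figure D5:**
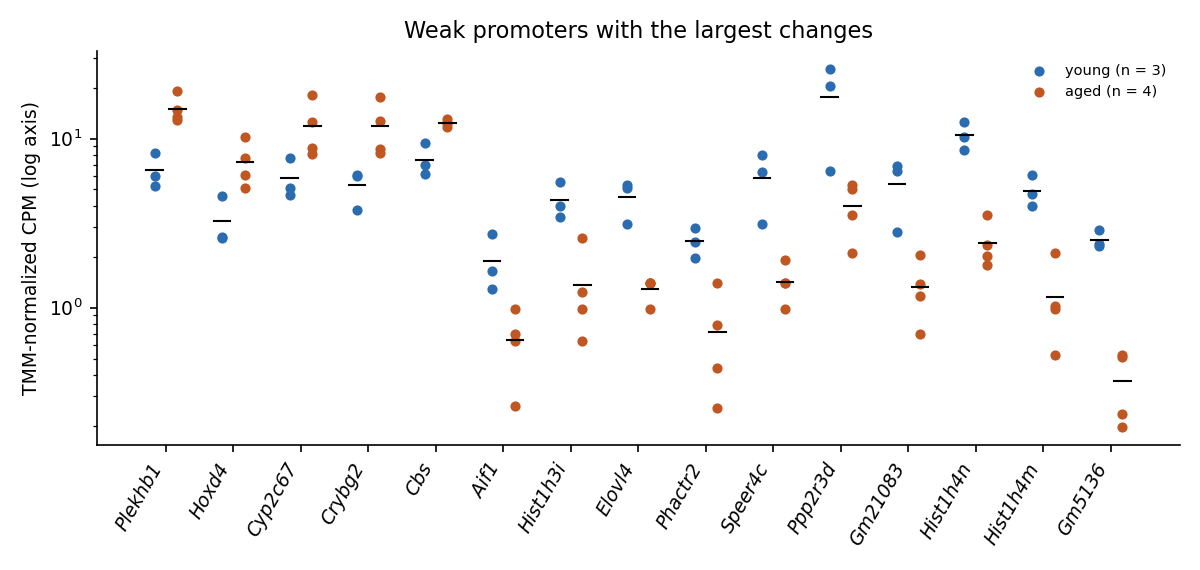
TMM-normalized CPM (vertical log axis) in each young (blue) and aged (orange) sample for 5 of the weak promoters that were higher and the 10 with the largest decreases among called promoters whose groups do not overlap, ordered by log2 fold change, with the mean as a black line. The aged samples of Plekhb1, at the left, lie between 12.8 and 19.0 CPM, and those of Gm5136, at the right, between 0.196 and 0.527 CPM.

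Among the lists, few weak promoters passed the test, mostly with lower values in aged liver. Of the 18 weak regions of potassium channel genes 2 fell and 0 rose, with a median log2 fold change of -0.53. Kcng3, a modifying subunit of voltage-gated channels, had 8.70, 8.54 and 6.41 CPM in young and 2.99, 3.73, 2.33 and 3.18 CPM in aged samples (-1.37 ± 0.25 SE, edgeR adjusted p = 0.012). Of the 14 regions of sodium and calcium channel genes only that of Cacna1c, the pore of the L-type calcium channel, fell, from 5.65, 5.33 and 3.78 to 2.37, 1.18, 1.40 and 1.91 CPM (-1.46 ± 0.30 SE, edgeR adjusted p = 0.019). The call of Cacna1c was lost with the abundance offsets (adjusted p = 0.089, edgeR), and that of Kcng3 was kept (0.040). The median of these 14 was -0.46. These are read beside the 5.72% of all weak promoters that were lower.

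Of the 23 weak regions of developmental transcription factor genes 2 fell, those of Nkx2-4 (-1.74 ± 0.36 SE, edgeR adjusted p = 0.018) and Sox15 (-1.25 ± 0.28 SE, adjusted p = 0.023). Nkx2-4, a homeobox gene of the forebrain, had 3.24, 3.82 and 3.29 CPM in young and 0.966, 0.588, 0.700 and 1.65 CPM in aged samples, and Sox15 had 5.37, 5.44 and 4.28 and then 1.84, 1.77, 2.10 and 2.80 CPM. Both calls were lost with the abundance offsets (adjusted p = 0.11 for each, edgeR). Of the 5 Hox regions Hoxd4 rose and 0 fell, with Hoxa7 at -0.91 (adjusted p = 0.074, edgeR). Solute carrier genes had 58 weak regions, of which 4 (6.90%) fell and 0 rose, with a median of -0.43, beside 5.72% of all weak promoters that were lower. These were Slc24a4, a sodium, calcium and potassium exchanger (-1.57), Slc6a4, the serotonin transporter (-1.36), Slc8a1, a sodium and calcium exchanger (-1.28), and Slc4a3, an anion exchanger (-1.16). Slc24a4 had 4.91, 4.76 and 3.62 CPM in young and 1.84, 1.77, 0.934 and 1.27 CPM in aged samples, and the groups did not overlap. The calls of all 4 genes were lost with the abundance offsets, at adjusted p of 0.070 for Slc24a4, 0.27 for Slc6a4, 0.28 for Slc8a1 and 0.32 for Slc4a3 (edgeR). Slc24a4 was called in 16, Slc6a4 in 10, Slc8a1 in 9 and Slc4a3 in 4 of 21 alternatives.

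Of 81 weak regions of Zfp genes 3 (3.70%, beside 5.72% of all weak promoters) fell and 0 rose, those of Zfp9 (-1.13), Zfp651 (-1.08) and Zfp933 (-0.67). Zfp9 had 14.5, 12.7 and 15.5 CPM in young and 7.91, 5.88, 3.27 and 7.76 CPM in aged samples. With the abundance offsets none of these 3 was called (adjusted p = 0.060, 0.17 and 0.098, edgeR). Of 47 regions of predicted Gm genes 6 (12.8%) fell, among them Gm5136 and the 3 duplicated genes on chromosome 5, Gm48552 (-0.84) and Gm4969 (-1.06). Of the 5 Mup regions that of Mup18 fell, from 18.1, 9.68 and 16.4 to 7.99, 8.24, 8.64 and 4.45 CPM (edgeR adjusted p = 0.042), while Mup12, Mup1 and Mup20 had log2 fold changes of 0.16, 0.02 and 0.37. With the abundance offsets Gm48552, Gm4969 and Mup18 were not called (adjusted p = 0.155, 0.127 and 0.11, edgeR). Cytochrome P450 genes had 11 weak regions, with Cyp2c67 as the only one that passed, and the others included Cyp2c29 at 0.48 and Cyp3a11 at -0.44 (edgeR adjusted p = 0.32 and 0.38). In 0 weak regions of the olfactory receptor, keratin, defensin, protocadherin, neurotransmitter receptor, chemokine and interleukin, UDP-glucuronosyltransferase, Serpina, testis, ribosomal, proteasome, complex I or RNA polymerase II lists did a value pass. Together with the weak markers of minor cell types, the 21 lists without a call held 78 weak regions. Of these, 13 (16.7%) had an unadjusted p under 0.05 (edgeR), beside 28.3% of weak promoters and 24.6% of all regions. Serpina7, which encodes thyroxine-binding globulin, had 2.59, 3.44 and 4.11 CPM in young and 4.30, 6.28, 6.77 and 6.87 CPM in aged samples, without overlap, at an adjusted p of 0.081 (edgeR).

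Weak promoters that accompany a more accessible region of the same gene allowed a comparison within genes. For 505 pairs of a weak region and the strongest promoter region of its gene, the strongest had a median of 2.75 times the level per kb. The median log2 fold change was -0.27 in the weak regions and 0.14 in the strongest ones. The regions of a pair differ in mean CPM by choice. With the abundance offsets, the 496 weak regions whose genes all had a stronger region had a median of -0.03, against -0.26 without them. The weak region was lower in 26 pairs (5.15%, beside 5.72% of all weak promoters) and higher in 1. The pairs held 463 distinct strongest regions, of which 6 (1.30%) were lower and 37 (7.99%) higher. Of all promoter regions 1.6% were lower and 4.63% higher. Both regions were lower in 1 pair, that of Phactr2. In 87 of the 505 pairs the strongest region was itself a weak promoter. The largest ratios of level per kb were those of Nck1, an adaptor of receptor tyrosine kinases (17.7), Add3, a cytoskeletal protein (16.8), and Rcbtb1 (15.6), in none of which the weak region passed the test. Egfr, the epidermal growth factor receptor, was named after its values were seen. Its weak region (chr11:16877250-16878130), which begins 126114 bp from the strongest, had 6.20, 14.6 and 6.41 CPM in young and 1.58, 4.31, 3.50 and 2.42 CPM in aged samples, with a log2 fold change of -1.76 ± 0.38 (SE, edgeR adjusted p = 0.020), while the strongest region had 0.52 (adjusted p = 0.041). The weak region of Eng, an endothelial co-receptor of TGF-beta also named after its values were seen, had -1.54 (edgeR adjusted p = 0.019) against -0.34 in the strongest region of the gene (adjusted p = 0.46). The weak regions of Egfr and Eng were not called with the abundance offsets (adjusted p = 0.064 and 0.089, edgeR).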

How the data were processed

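According to their methods, the authors trimmed reads (cutadapt 1.13, per the submitters' processing notes), aligned them to GRCm38 (Bowtie2 2.4.1), removed reads of low mapping quality, duplicates and mitochondrial reads, called peaks (MACS2 2.2.7) and deposited raw counts (featureCounts) for regions that were a peak in 2 libraries or more. No normalization had been applied. These choices leave out promoters without a peak.

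The whole table was fitted with edgeR 4.0.16 (R 4.3.3, TMM, quasi-likelihood test with age alone as factor, Benjamini-Hochberg adjustment over all regions at 0.05, no filter), tested on simulated data. Of 100 weak promoters with a simulated log2 change of 2 in size, 92% were called, and of 100 with a change of 1 only 28%. A region that was not called may therefore still differ. CPM for the choice of members used library totals, and CPM per sample used TMM. Replicates may share an animal, so p-values measure the spread between samples. Near-identical copies matched 80% or more of a region with an identity of 95% or more (minimap2 2.31). Motifs were searched in GRCm38 at GENCODE M21 starts.

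Named were the 10 largest increases and decreases among calls without overlap, the 5 weakest regions, 3 on each side of the limit, up to 4 genes per list and all list members that passed, besides the histone, Egfr and Eng regions. The members and lists were chosen with earlier results of these data known. Il4i1, an amino acid oxidase whose symbol matched the interleukin pattern, was taken off that list after its value was seen, and the lower value of its weak region (edgeR adjusted p = 0.020) was the only call there. Alternatives were DESeq2 1.42.0, limma 3.58.1 (voom), total counts, loess offsets (span 0.3), filterByExpr, thinning, omitted or summed samples, a replicate block, a threshold of 0.01 and other choices of members. Scaling by whole libraries was not used here. Some named genes are not reported here.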

Additional observations from a re-analysis of the deposited data

Results flagged for a closer look

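Among 133 regions with values in the 4 aged samples, 3 had 1 aged sample far from the other 3, and chance gives about 1 in 20 such groups. At Mup18, aged replicate 4 had a log2 CPM of 2.217, while the other aged samples had 3.034 to 3.143 and the young ones 3.303 to 4.189. The change of Mup18 was called in 10 of 21 alternatives, and was not called when any 1 of the aged samples was left out. At Elovl4, aged replicate 2 had 0.2329, the others 0.6731 to 0.6782 and the young samples 1.731 to 2.466. At Sh3gl2, aged replicate 3 had a count of 0 and a log2 CPM of -2.362, the others -0.3049 to 0.1183 and the young samples 0.02385 to 1.741. The causes were not tested.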

How the results depend on the processing

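The median log2 fold change of weak promoters was negative in every setting run, from -0.45 with total counts to -0.13 with offsets on mean abundance. It was -0.24 with offsets on GC content and -0.43 in the lowest 10% of promoters. Leaving out 1 sample gave -0.40 to -0.30, with 0 to 13 promoters higher and 5 to 232 lower. Counts of higher promoters were 12 with DESeq2, 18 with GC offsets, 3 with abundance offsets, 2 with total counts, 12 when chosen by young CPM and 1 in the lowest 10%. Counts of lower ones were 217 with limma voom, 23 with abundance offsets, 252 with total counts, 84 after thinning and 83 in the lowest 10%. Summing aged samples gave 3 higher (1 and 2), 1 higher and 59 lower (1 and 3) and 2 higher and 87 lower (2 and 3), but 9 higher and 214 lower (2 and 4) and 8 higher and 166 lower (1 and 4). At a threshold of 0.01, 0 were higher and 6 lower. The causes were not tested. With a replicate block the counts were 13 higher and 219 lower. Replicate numbers did not pair the samples, as their deviations correlated by -0.12, 0.06 and 0.03. Choosing members by CPM per kb kept 82.8% of the regions, and 95.4% were kept by young CPM. Of 43 named regions that were called, 14 were called with abundance offsets, 3 without young replicate 1 and 12 without young replicate 2, and in 0 did the direction change. Median counts of 22 to 58 in the aged libraries limit single regions, and intervals cover counting error and the spread between samples only.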
